A study of Homo sapiens with 9 samples.

Results

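The respiratory chain and ATP synthase subunits were followed in K562 cells depleted of DHX34 or UPF1. Members were the protein-coding genes whose symbols name a structural subunit of complexes I to V or cytochrome c, assembly factors left out. This gave 102 genes, of 19782 protein-coding genes and 58214 genes in all in the quantification tables. Of these, 89 are encoded in the nucleus (40 for complex I, 4 for complex II, 10 for complex III, 15 for complex IV, 19 for complex V and cytochrome c) and 13 in mitochondrial DNA (7 for complex I, 1 for complex III, 3 for complex IV and 2 for complex V). NDUFA4 was kept under complex I by its symbol, although its product is now regarded as a complex IV subunit.

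Complexes I and II pass electrons from NADH and succinate to ubiquinone, complex III passes them to cytochrome c, and complex IV passes them to oxygen. Complexes I, III and IV pump protons out of the matrix while they do so, and complex V (ATP synthase) lets the protons back in to make ATP. The mitochondrial subunits are transcribed inside the organelle as long precursors that are cut into short, intronless mRNAs, whereas the nuclear subunits are transcribed, spliced and translated like other cellular mRNAs and imported. UPF1 is the central helicase of nonsense-mediated mRNA decay (NMD), which removes cytoplasmic mRNAs whose stop codon lies upstream of an exon junction, and DHX34 is a helicase that acts in NMD and in splicing. The decay of mitochondrial mRNAs in the organelle does not use this route.

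K562 is an erythroleukaemia cell line, spelled K652 in the cell line label. Cells were transfected with a nontargeting siRNA pool (SCR, whose treatment label reads WT), with siRNA against DHX34 or with siRNA against UPF1, and were collected on day 4. Each of the 3 groups had 3 libraries of poly(A)-selected mRNA. No allele or drug distinguished the groups, all of which received siRNA, and the study describes the replicates as biological. The labels give no culture or batch for them.

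The libraries held 73478797 to 103625443 expected counts. DHX34 mRNA was at 72.3 to 74.5 normalised CPM (counts scaled to library size) in SCR and 30.0 to 34.0 in its knockdown (log2 fold change -1.23), and UPF1 mRNA was at 252 to 266 in SCR and 105 to 107 in its knockdown (-1.32). The summed TPM (a level corrected for length and library size) of 9 K562 erythroid markers was 25562 to 27154 in SCR, 23536 to 25636 in DHX34 knockdown and 15519 to 16726 in UPF1 knockdown. This sum is mostly globin mRNA (HBG2, HBG1, HBE1 and HBZ). After UPF1 knockdown 6 of the 9 markers fell and TFRC rose (0.40), and after DHX34 knockdown 2 fell. The 7 markers of other blood cells summed to 29.2 to 32.2, 61.5 to 63.6 and 34.1 to 36.9 TPM in the same order. Among them PTPRC rose in both knockdowns (0.81 and 0.42), and LYZ rose after DHX34 knockdown (0.96) and fell after UPF1 knockdown (-0.43). CD3G fell after UPF1 knockdown (-2.60), and MS4A1 was listed at 0. Between the knockdowns, all 4 of these markers that were tested were lower in UPF1 knockdown, CD3G most (-3.30). The part of these shifts in the results below was not tested. A gene was called when its adjusted p was at most 0.005. In bulk RNA, fewer cells of a type and less RNA per cell cannot be told apart.

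The typical mitochondrial mRNA was more abundant per length than the typical nuclear member. The mean level of the 13 in SCR ran from 240.3 TPM for MT-ND5 to 17992 TPM for MT-ATP8, with a median of 4071 TPM, against a median of 224 TPM for the nuclear members. MT-ND1, MT-ND2, MT-ND4, MT-ND5, MT-ND6 and MT-CYB (921 TPM) were among those below the highest nuclear member, ATP5MF at 2831 TPM. The highest values belong to very short coding sequences. The effective length, on which TPM divides, averaged 20 bases for MT-ATP8, 58 for MT-ND4L and 97 for MT-ND3, so these TPM values are imprecise. Both MT-ATP8 and MT-ND4L also share bases, on the same strand, with the gene that follows them, and reads there could be assigned to either gene. The sequences of the overlaps are shown, with the shared bases in capitals, because the values of these 4 genes are not independent. They are from GRCh38, plus strand, at chrM:8515-8584 for the first and chrM:10748-10778 for the second.
MT-ATP8 and MT-ATP6: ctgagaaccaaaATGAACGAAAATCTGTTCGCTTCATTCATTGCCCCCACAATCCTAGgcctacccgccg
MT-ND4L and MT-ND4: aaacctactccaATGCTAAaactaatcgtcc
The first overlap spans 46 bases and the second 7. In both, the capitals begin with the ATG that starts the downstream frame.

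Knockdown of DHX34 lowered 9 of the 13 mitochondrial mRNAs and raised none. Of all 17004 genes tested, 4.86% fell and 5.54% rose. The median log2 fold change of the 13 was -0.45, against 0.02 for all genes. The largest fall was that of MT-ND4 (chrM:10760-12137), a proton-pumping subunit in the membrane arm of complex I. It measured 2776, 2731 and 2855 CPM in the 3 SCR libraries and 1735, 1585 and 2070 CPM after DHX34 knockdown (log2 fold change -0.64 ± 0.08 SE, adjusted p = 0.000194). The groups did not overlap, and the third DHX34 library lay closest to SCR. MT-CO3, a core subunit of complex IV, measured 3606, 3589 and 4001 CPM in SCR and 2524, 2344 and 2634 CPM in the knockdown (-0.58 ± 0.05, adjusted p = 4.1e-05). MT-CO1, which holds the oxygen-reducing site of complex IV, measured 6163, 6035 and 6550.3 CPM in SCR and 4418, 3998 and 4789 CPM in the knockdown (-0.51 ± 0.06, adjusted p = 0.000181). All 3 knockdown libraries were below all SCR libraries for both genes.

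The other calls were less firm. MT-CYB, the subunit of complex III that carries its ubiquinone sites, measured 823, 817 and 879 CPM in SCR and 516, 465 and 663 CPM in the DHX34 knockdown (-0.62 ± 0.10, adjusted p = 0.00108). MT-ND1, which helps to form the ubiquinone pocket of complex I, measured 726, 759 and 772 CPM in SCR and 459.6, 426 and 636 CPM in the knockdown (-0.57 ± 0.11, adjusted p = 0.00377). In both genes the third DHX34 library stood well above the other 2 and still below SCR. MT-ND4L (-0.52), MT-ND2 (-0.45), MT-ATP6 (-0.41) and MT-CO2 (-0.36) were also called, while MT-ND3 (-0.28), MT-ND6 (-0.25), MT-ATP8 (-0.11) and MT-ND5 (-0.01) were not. For MT-ND5, the third DHX34 library at 506 CPM was the highest of all 9, above the SCR libraries at 413, 416 and 308 CPM.

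Leaving out any 1 of the 6 libraries changed this count. The 9 calls became 12 without DHX34 replicate 3, against a background of 4.71% of all genes falling in the same fit. They became 3 without DHX34 replicate 1, 5 without DHX34 replicate 2 and 3 without any 1 of the SCR replicates. MT-ND4, MT-CO1 and MT-CO3 were the 3 genes called in all of these fits. On the TPM scale, where the median of all genes shifted by 0.13, none of the 13 was called by limma, 11 were below 0 and their median was -0.31. In that fit 0.547% of all genes fell.

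Knockdown of UPF1 lowered 11 of the 13 mitochondrial mRNAs and raised none, where 12.9% of all 17184 genes tested fell and 12.4% rose. The median log2 fold change was -0.48, and the replicates lay close together. MT-CO3 showed the largest fall, with 2387, 2199.5 and 2321 CPM after UPF1 knockdown against the SCR values above (-0.70 ± 0.04, adjusted p = 1.7e-07). MT-ND4 measured 1817, 1644 and 1829.8 CPM (-0.67 ± 0.04, adjusted p = 1.4e-07). Neither gene's knockdown libraries came near the SCR range.

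MT-ND1 measured 548, 514 and 497 CPM after UPF1 knockdown (-0.54 ± 0.04, adjusted p = 5.6e-07) and MT-CYB 615, 563 and 565 CPM (-0.54 ± 0.04, adjusted p = 8.1e-07). MT-CO1 measured 4718, 4440 and 4775.5 CPM (-0.44 ± 0.03, adjusted p = 1.5e-06). Falls in MT-CO2 (-0.49), MT-ATP6 (-0.49), which forms the proton path of ATP synthase, MT-ND4L (-0.48), MT-ND2 (-0.36) and MT-ATP8 (-0.27) were also called. MT-ND6 is the protein gene encoded on the opposite mitochondrial strand from the other 12. It measured 108, 105 and 90.2 CPM in SCR and 82.6, 72.0 and 73.3 CPM after UPF1 knockdown (-0.42 ± 0.07, adjusted p = 0.000391). Its groups did not overlap, whereas after DHX34 knockdown it was at 77.3, 70.9 and 107 CPM and overlapped SCR. MT-ND3 (-0.18) and MT-ND5 (-0.13) were not called.

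Of the 11 UPF1 calls, 10 held without each of the 6 libraries in turn. MT-ATP8 lost its call without SCR replicate 2, UPF1 replicate 1 or UPF1 replicate 2, with a highest adjusted p of 0.00828. On the TPM scale, 8 of the 13 were called as falling by limma, where 1.64% of all genes fell, with a median of -0.29 against a shift of 0.17 for all genes.

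**Figure D1:**
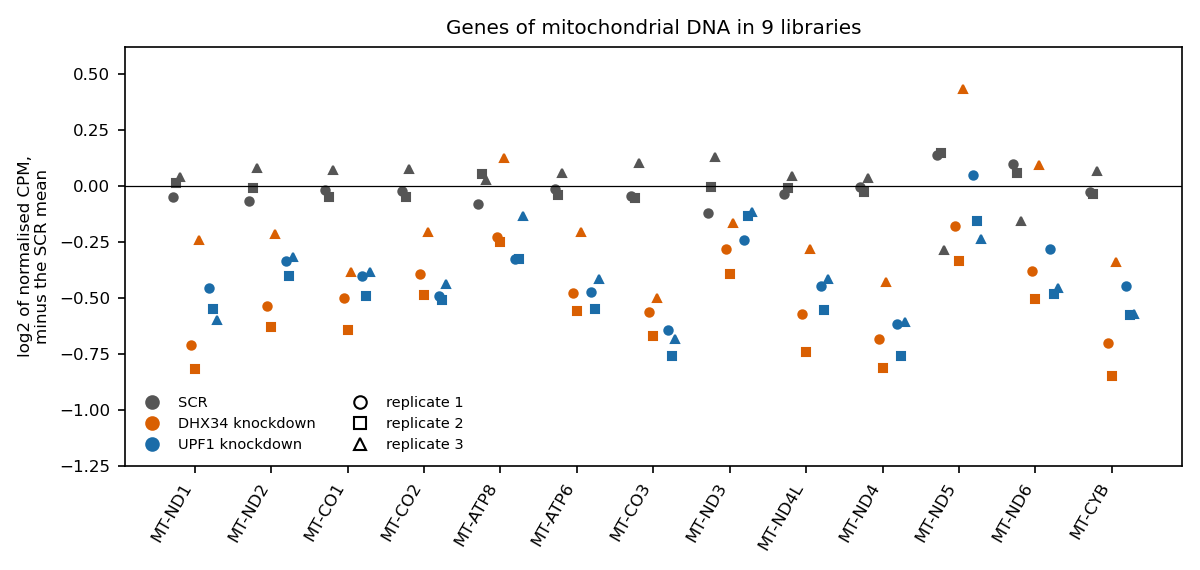
Log2 of normalised CPM, minus the SCR mean, for the 13 mitochondrial subunit mRNAs in order along the mitochondrial genome, with 1 point for each of the 9 libraries, coloured by group and shaped by replicate number. Knockdown libraries lie mostly below the SCR line at 0, and the third DHX34 library lies above the other 2 in every gene, most visibly for MT-ND5, where it is the highest of the 9 at 506 CPM.

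The direct comparison of the knockdowns called none of the 13 mitochondrial mRNAs, with a median difference of -0.02 (UPF1 knockdown minus DHX34 knockdown). DESeq2 also called none. At unadjusted p under 0.05, 1 was higher and 1 lower in UPF1 knockdown. Among all genes 9.89% were higher and 7.47% lower in UPF1 knockdown. Without DHX34 replicate 3, 4 of the 13 were higher in UPF1 knockdown, against 10.7% of all genes. Both knockdowns were compared with the same SCR libraries, so the similar falls above are not independent.

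Summed per library, the 13 mitochondrial genes held 59356, 63425 and 64802 TPM in SCR, 51144, 48454 and 65237 TPM in DHX34 knockdown and 53392, 51360 and 56108 TPM in UPF1 knockdown. Every UPF1 library was below every SCR library, but the third DHX34 library was above all of SCR. The difference of mean log2 sums was -0.22 for UPF1 (62528 ± 2832 in SCR and 53620.0 ± 2382 in UPF1 knockdown, SD, n = 3, exact two-sided permutation p = 0.1). For DHX34 it was -0.20 (54945 ± 9014, exact permutation p = 0.4), and -0.33 without DHX34 replicate 3. With 3 libraries against 3, p = 0.1 is the smallest value that the exact permutation test can give.

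The sum leans on MT-ATP8 and MT-ND4L, whose short effective lengths inflate TPM. Without them the DHX34 difference was -0.29. In counts scaled to the library total alone, without TMM factors, the difference for all 13 was -0.41. Counts are not divided by length, but count fold changes still moved with length (Spearman's correlation of 0.24 across all genes for DHX34). With the length trend removed, the median log2 fold change of the 13 after DHX34 knockdown was -0.35, against -0.45 before. The 2 mitochondrial rRNAs, which are not members, fell as well after DHX34 knockdown (MT-RNR2 by 0.60 on the log2 scale), and MT-RNR2 fell by 0.46 after UPF1 knockdown. The nuclear genome carries copies of mitochondrial genes, and 404 such copies took 0.437 to 0.518% of the counts of members and copies together.

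The 89 nuclear members summed to 33214, 32351 and 32851 TPM in SCR, 31649, 31906 and 30681 TPM in DHX34 knockdown and 31044, 30820.0 and 31079 TPM in UPF1 knockdown. All libraries of both knockdowns were below SCR. The log2 differences were -0.06 and -0.08 (each exact permutation p = 0.1), or 0.957 and 0.944 times the SCR level. The ratio of mitochondrial to nuclear TPM differed from SCR by -0.14 on the log2 scale in each knockdown (exact permutation p = 0.4 for DHX34 and 0.2 for UPF1), and the groups overlapped.

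**Figure D2:**
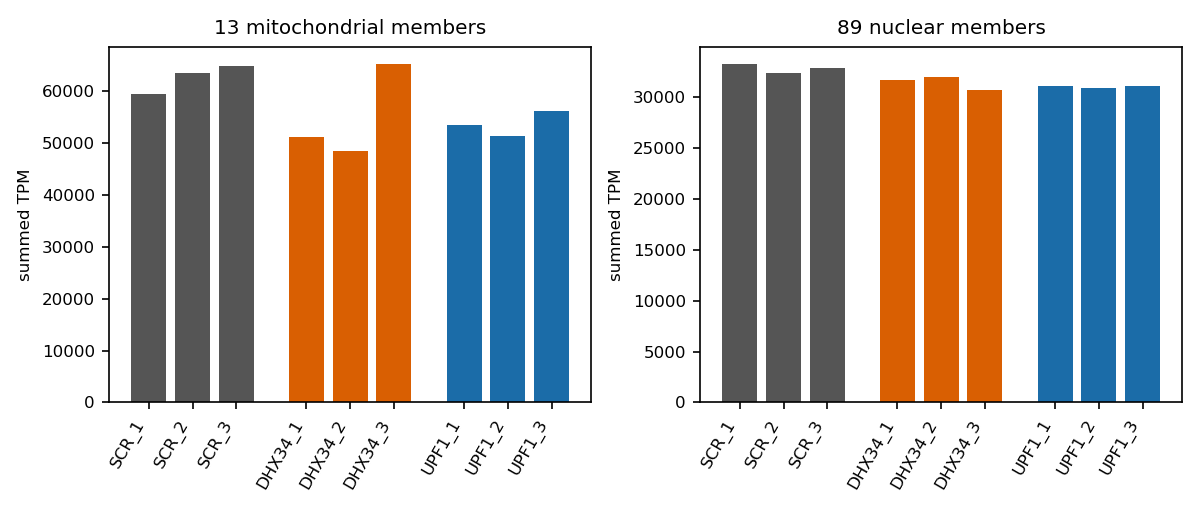
Summed TPM of the 13 mitochondrial and of the 89 nuclear members, with 1 bar per library coloured by group. The third DHX34 library, at 65237 TPM of mitochondrial mRNA, is the highest of the 9, while the nuclear sums of both knockdowns lie below the lowest SCR sum of 32351 TPM.

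Within the nucleus, the members with the highest level per length in each complex were NDUFS5 (complex I, 978 TPM in SCR on average), SDHB (complex II, 219 TPM), UQCRH (complex III, 1907 TPM), CYCS (cytochrome c, 487 TPM), COX8A (complex IV, 1249.8 TPM) and ATP5MF (complex V, 2831 TPM). Promoters of such genes are known targets of NRF1 (nuclear respiratory factor 1) and of ETS factors of the GABP type. Matches to print were sought for the highest member of complexes II, III and IV and for CYCS, and not for complexes I and V. The 4 stretches below are the promoter matches found before the start of these genes, with the matched word in capitals. They are shown because most members moved in 1 direction, and come from RefSeq sequences on GRCh38.p14, written 5′ to 3′ on the gene's strand.
SDHB, minus strand of chr1:17054199-17054258: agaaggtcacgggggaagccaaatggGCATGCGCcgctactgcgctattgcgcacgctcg
UQCRH, plus strand of chr1:46303625-46303684: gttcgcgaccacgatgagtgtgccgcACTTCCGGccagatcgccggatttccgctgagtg
CYCS, minus strand of chr7:25125396-25125455: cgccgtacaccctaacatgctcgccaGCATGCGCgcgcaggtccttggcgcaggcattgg
COX8A, plus strand of chr11:63974575-63974634: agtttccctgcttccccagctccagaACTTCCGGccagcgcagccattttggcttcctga
The words searched on both strands of windows from 250 bases before to 50 after the start were GCATGCGC for NRF1, CCGGAAGT for ETS factors and AAGATGGC for YY1, and none of these words contains another. Promoter windows were listed for 70 of the nuclear members (83 windows). NRF1's word was in 19.3% of these against 3.05% of all 35116 windows, that of ETS factors in 14.5% against 4.14%, and that of YY1 in 15.7% against 2.89%. Of the 52 genes with a window that fell after UPF1 knockdown, 12 held the NRF1 word, and of the 18 others 3 did. The ETS word was in 8 of the 52 and 4 of the 18, and the YY1 word in 9 of the 52 and 3 of the 18. A matching word is a description of the sequence and shows no binding.

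Across the nuclear members, 85 passed the filter on low counts. After DHX34 knockdown 29 of these 85 fell and none rose, where 4.86% of all genes fell and 5.54% rose, with a median log2 fold change of -0.21. After UPF1 knockdown 63 fell and 3 rose, where 12.9% of all genes fell and 12.4% rose, with a median of -0.26. These are counts relative to library size, with TMM size factors. On the length-corrected TPM scale limma was run without such factors, and the median of all genes stood at 0.13 and 0.17. There 2 fell and none rose after DHX34 knockdown, where 0.547% of all genes fell. On that scale 16 fell and 11 rose after UPF1 knockdown, where 1.64% of all genes fell and 18.7% rose. With length-scaled TPM and TMM factors together, 14 fell and 0 rose after DHX34 knockdown, where 341 of 17057 genes fell. In the same setting 56 fell and 0 rose after UPF1 knockdown, where 1428 of 17238 genes fell and 1333 rose. Relative to all genes, the nuclear medians were -0.23 and -0.27 on the count scale and -0.17 and -0.22 on the TPM scale. The position of the set below the median gene thus held on both scales, while the split of calls did not.

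The DHX34 count moved with single libraries. It was 12 without SCR replicate 1 or SCR replicate 3, 19 without DHX34 replicate 1, and 23 to 30 without any 1 of the other 3. The UPF1 count of falls was 57 to 64 in all of its leave-one-out fits, but its 3 rises became 0 to 2.

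Complex I carries electrons from NADH in a matrix arm built on 7 nuclear core subunits, around which accessory subunits stabilise the whole. Of its 40 nuclear members, 14 fell after DHX34 knockdown (4.86% of all genes) and 30 fell and 1 rose after UPF1 knockdown (12.9% and 12.4%). The core subunits account for 2 of the 14 and 4 of the 30. NDUFB2, an accessory subunit of the membrane arm (chr7:140690777-140722790), showed the largest called fall of the nuclear members in both comparisons. It measured 129.0, 119 and 129 CPM in SCR, 93.6, 96.2 and 88.7 CPM in DHX34 knockdown (-0.44 ± 0.05, adjusted p = 0.000102) and 87.2, 86.7 and 94.5 CPM in UPF1 knockdown (-0.50 ± 0.04, adjusted p = 3.4e-06). Neither knockdown overlapped SCR, and the 2 knockdowns overlapped each other.

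NDUFB8, another membrane arm subunit, measured 103, 97.4 and 95.1 CPM in SCR, 81.4, 85.2 and 76.7 CPM in DHX34 knockdown (-0.28 ± 0.05, adjusted p = 0.00216) and 72.1, 69.5 and 70.2 CPM in UPF1 knockdown (-0.49 ± 0.04, adjusted p = 1.5e-06). NDUFB1 (-0.42), NDUFA1 (-0.36) and NDUFA12 (-0.35) were the next largest falls of the complex after DHX34 knockdown. NDUFB1 lost that call without SCR replicate 1 or SCR replicate 3, with a highest adjusted p of 0.0058. NDUFA1 and NDUFA12 kept theirs in every leave-one-out fit.

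NDUFS5, the most abundant nuclear member of the complex, measured 311, 281 and 296 CPM in SCR and 226, 224 and 227 CPM after UPF1 knockdown (-0.40 ± 0.04, adjusted p = 4.1e-06), and -0.22 was not called after DHX34 knockdown (adjusted p = 0.0102). Among the core subunits, NDUFS7, which carries the last iron-sulfur cluster before ubiquinone, fell in both knockdowns (-0.28, adjusted p = 0.000264, and -0.26, adjusted p = 9.2e-05). NDUFV2 also fell in both (-0.27, adjusted p = 0.000903, and -0.30, adjusted p = 7.6e-06). NDUFS1, the largest core subunit, was at 130.3 to 134 CPM in SCR, 127 to 132 CPM in DHX34 knockdown and 129 to 134 CPM in UPF1 knockdown and was not called. The median of the core subunits turned from -0.14 and -0.19 on the count scale to 0.02 and 0.01 on the TPM scale, where all genes stood at 0.13 and 0.17.

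NDUFA10 was the complex I gene that rose after UPF1 knockdown. It measured 99.5, 93.2 and 95.5 CPM in SCR and 104, 108 and 109 CPM in UPF1 knockdown (0.15 ± 0.03, adjusted p = 0.00466). The groups did not overlap. The call was lost when any library but SCR replicate 1 was left out, with a highest adjusted p of 0.0252.

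Complex II, the succinate dehydrogenase that also serves the TCA cycle, is built from 4 nuclear subunits. None was called after DHX34 knockdown (adjusted p of 0.0113 to 0.829), although 3 were lower at unadjusted p under 0.05 and DESeq2 called 3 as falling. SDHB, the iron-sulfur subunit, was called after UPF1 knockdown with 197, 196 and 202 CPM in SCR and 167, 163 and 171 CPM in the knockdown (-0.26 ± 0.03, adjusted p = 2.4e-05). In TPM it was at 215, 223 and 219.8 in SCR and 213, 206 and 216 after UPF1 knockdown, where the groups overlapped. SDHA, the flavin-carrying catalytic subunit, was at 222 to 224 CPM in SCR, 219.8 to 224 CPM in DHX34 knockdown and 212 to 226 CPM in UPF1 knockdown. The median of the complex was -0.15 and -0.06 on the count scale and 0.02 and 0.11 on the TPM scale, where all genes stood at 0.13 and 0.17. Relative to all genes it was -0.12 and -0.05 on the TPM scale.

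Complex III, which holds the cytochrome bc1 core, had 9 of 10 nuclear members tested. Of these, 3 fell after DHX34 knockdown and 8 after UPF1 knockdown, where 4.86% and 12.9% of all genes fell. UQCRH, the hinge protein next to cytochrome c1 (chr1:46303698-46316776), measured 711, 663 and 704 CPM in SCR, 591, 583 and 551 CPM in DHX34 knockdown (-0.27 ± 0.04, adjusted p = 0.00127) and 584, 574 and 617 CPM in UPF1 knockdown (-0.23 ± 0.03, adjusted p = 0.000175). Neither knockdown overlapped SCR. The DHX34 call was lost without SCR replicate 1 or SCR replicate 3 (highest adjusted p of 0.00775). The near-identical retrocopy UQCRHL was at 0.0307 TPM on average in SCR. Its canonical transcript was not among the matched identifiers, so this level may be understated, and reads it shares with UQCRH could be assigned to either gene.

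CYCS, the carrier between complexes III and IV and a trigger of apoptosis when released, measured 703, 686 and 731 CPM in SCR, 623, 608 and 573 CPM in DHX34 knockdown (-0.23 ± 0.04, adjusted p = 0.00274) and 639, 644 and 654 CPM in UPF1 knockdown (-0.14 ± 0.03, adjusted p = 0.00142). In TPM its order changed, with 486, 489 and 485 in SCR, 476, 474 and 469 in DHX34 knockdown and 506, 513 and 509 in UPF1 knockdown. Its UPF1 change was -0.14 in counts and 0.07 in TPM, where the median of all genes stood at 0.17. Relative to all genes it was -0.15 in counts and -0.10 in TPM.

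Complex IV had 13 of 15 nuclear members tested, of which 5 fell after DHX34 knockdown and 8 after UPF1 knockdown, where 4.86% and 12.9% of all genes fell. COX8A measured 342, 325 and 344 CPM in SCR, 313, 307 and 283 CPM in DHX34 knockdown (-0.16, adjusted p = 0.0218, not called) and 284, 287 and 265 CPM in UPF1 knockdown (-0.28 ± 0.04, adjusted p = 5.2e-05). COX4I1, a subunit at the regulatory ATP site of the complex, fell in both (-0.34, adjusted p = 0.00064, and -0.33, adjusted p = 1.1e-05).

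Several complex IV subunits come as isoform pairs used in different tissues. COX6A1 was at 985 to 1006 TPM in SCR while its muscle partner COX6A2 was listed at 0 in all 9 libraries. COX7A2 was at 317 to 326 TPM and the muscle partner COX7A1 at 0 to 0.187 TPM in SCR. COX7B2 was at 0.323 to 0.996 TPM and COX6B2 at 0.461 to 0.957 TPM in SCR, and NDUFA4L2 at 0.757 to 1.63 TPM beside NDUFA4 at 117 to 121 TPM. COX6A1 fell after UPF1 knockdown (-0.33, adjusted p = 3.2e-06), NDUFA4 fell after UPF1 knockdown (-0.35, adjusted p = 1.0e-05) and COX7A2 fell in both knockdowns (-0.33 and -0.32). COX6B1, COX7B, NDUFA6 and ATP5MC2 stood at only 2.52 to 10.7 TPM on average over the 9 libraries. The canonical transcripts of COX6B1, COX7B and COX7A2 were not among the matched identifiers, so such sums can lack transcripts and understate the level.

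COX7A2L, which helps to join complexes III and IV into supercomplexes, separated the knockdowns. It measured 137, 129 and 134 CPM in SCR, 114, 115 and 107 CPM in DHX34 knockdown (-0.25 ± 0.04, adjusted p = 0.00164) and 129, 131 and 134 CPM in UPF1 knockdown (-0.03, adjusted p = 0.467). The UPF1 libraries overlapped SCR and the DHX34 libraries did not. The DHX34 call was lost without DHX34 replicate 1, SCR replicate 1 or SCR replicate 3 (highest adjusted p of 0.0084). On the TPM scale the calls against SCR changed. There limma called COX7A2L as rising after UPF1 knockdown (0.17, adjusted p = 0.00113) and not as falling after DHX34 knockdown (-0.08, adjusted p = 0.0476). In the same UPF1 fit 18.7% of all genes rose and their median stood at 0.17, so COX7A2L lay near the median gene. In the DHX34 fit the median of all genes stood at 0.13.

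Complex V had 18 of 19 nuclear members tested, of which 6 fell after DHX34 knockdown (4.86% of all genes) and 15 fell and 2 rose after UPF1 knockdown (12.9% and 12.4%). ATP5MC1, one of the genes for the rotating c-ring subunit, measured 150.3, 134 and 144 CPM in SCR, 124.5, 124 and 115 CPM in DHX34 knockdown (-0.23, adjusted p = 0.00617, not called) and 100.5, 101 and 105 CPM in UPF1 knockdown (-0.49 ± 0.04, adjusted p = 2.7e-06). The 3 groups did not overlap. ATP5F1E, the epsilon subunit of the catalytic head's stalk, measured 287, 274 and 279 CPM in SCR, 236, 237 and 218 CPM in DHX34 knockdown (-0.28 ± 0.04, adjusted p = 0.000923) and 208, 211 and 205 CPM in UPF1 knockdown (-0.44 ± 0.03, adjusted p = 3.8e-07). ATP5MK, a small membrane subunit, fell in both (-0.38, adjusted p = 0.000443, and -0.41, adjusted p = 5.8e-06). ATP5MF, the most abundant nuclear member, fell after UPF1 knockdown (-0.40, adjusted p = 2.0e-06).

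The rises within complex V were in ATP5MC2 and ATP5MF-PTCD1. ATP5MC2, a second c-ring gene, was at 5.30, 4.67 and 3.90 CPM in SCR, 4.22, 4.68 and 4.64 CPM in DHX34 knockdown and 7.55, 6.0 and 7.24 CPM in UPF1 knockdown (0.58 ± 0.13, adjusted p = 0.00337). ATP5MF-PTCD1, a read-through transcript that shares exons with ATP5MF and PTCD1, was at 26.9, 26.7 and 28.8 CPM in SCR and 30.8, 32.4 and 32.0 CPM in UPF1 knockdown (0.20 ± 0.04, adjusted p = 0.00326). UPF1 libraries lay above SCR in both cases. The ATP5MC2 call was lost without SCR replicate 2, SCR replicate 3, UPF1 replicate 1 or UPF1 replicate 3, and that of ATP5MF-PTCD1 without any library but SCR replicate 3. The other read-through member, NDUFC2-KCTD14, was at 0 to 3.05 TPM and was not called.

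**Figure D3:**
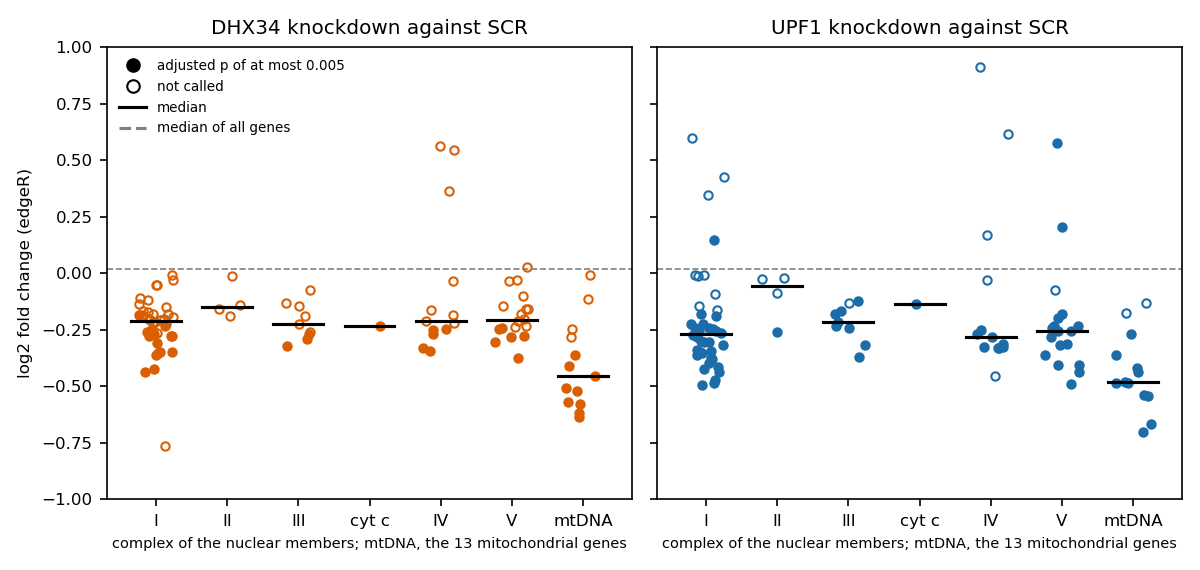
Log2 fold change against SCR of each tested member, with nuclear members by complex and the 13 mitochondrial genes together; filled points were called, bars are medians and the dashed line is the median of all genes. Most called points lie below 0, the mitochondrial points reach -0.70 after UPF1 knockdown, and NDUFC2-KCTD14 at -2.17 after DHX34 knockdown lies outside the axis.

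The members are short genes, and length moved with the fold changes. The median effective length was 557 bases for nuclear and 528 bases for mitochondrial members, against 1815 for all genes tested in the DHX34 comparison. Across all genes, Spearman's correlation of log2 fold change with effective length was 0.24 for DHX34 and 0.15 for UPF1 against SCR, and -0.03 between the knockdowns. Within the 85 nuclear members it was 0.32, 0.45 and 0.17. These are descriptions across genes that share the same libraries.

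With the length trend removed library by library, 13 nuclear members fell after DHX34 knockdown against 4.56% of all genes, and none rose. In the same fit 49 fell and 3 rose after UPF1 knockdown, against 13.8% of all genes falling and 1896 of 17184 rising. Relative to all genes, the nuclear medians were -0.11 after DHX34 knockdown and -0.17 after UPF1 knockdown. Of the mitochondrial members 5 and 10 fell, with medians of -0.35 and -0.37 relative to all genes. The source of the length trend was not tested.

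**Figure D4:**
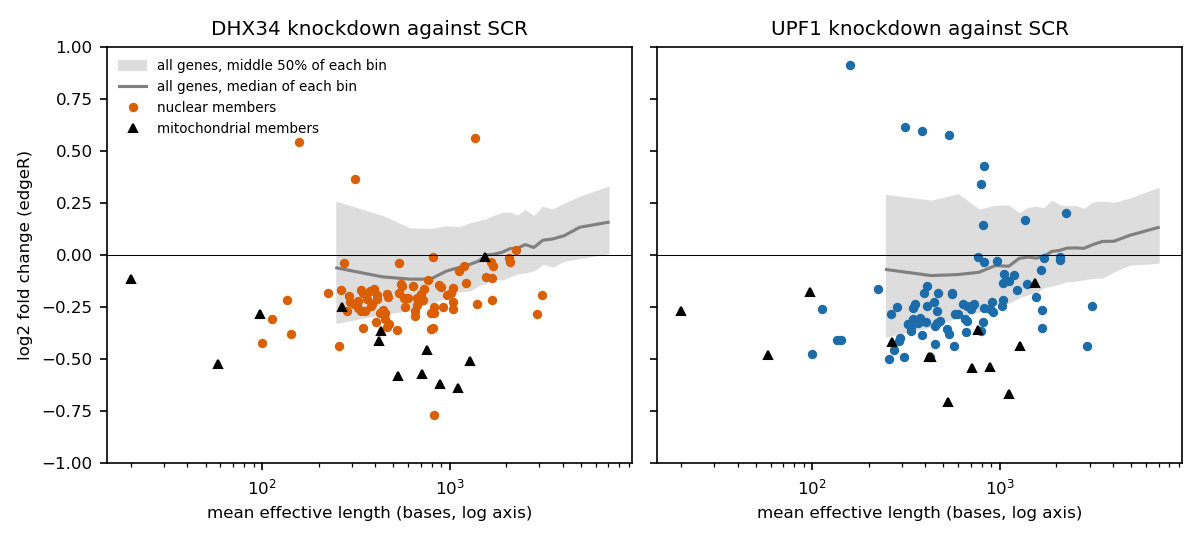
Log2 fold change against effective length (bases, log scale) for both knockdowns compared with SCR, with the median and middle 50% of all genes in 20 length bins and the members as points. The bin medians reach 0.16 and 0.13 in the longest genes and lie below 0 in the short ones, where most members stand, and NDUFC2-KCTD14 after DHX34 knockdown lies outside the axis.

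Set directly against each other, UPF1 knockdown was higher in 4 and lower in 2 of the 85 nuclear members, where 9.89% of all genes were higher and 7.47% lower. The median difference was -0.03. COX7A2L was higher by 0.24 ± 0.04 (adjusted p = 0.000491), and this call was kept without each library. NDUFA10 (0.17, adjusted p = 0.00232) and ATP5MC2 (0.63, adjusted p = 0.0011) were also higher, and lost their calls without DHX34 replicate 1, UPF1 replicate 1 or UPF1 replicate 3 (NDUFA10 also without UPF1 replicate 2). The fourth, NDUFA6, was at 1.04, 0.900 and 1.58 CPM in DHX34 knockdown and 3.21, 2.84 and 2.04 CPM in UPF1 knockdown (1.21, adjusted p = 0.00286). Its level was too low for the naming rule, it was named after its values were seen, and its SCR libraries ranged from 0.830 to 3.42 CPM.

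ATP5MC1 (-0.24 ± 0.04, adjusted p = 0.000687) and ATP5MF (-0.17 ± 0.04, adjusted p = 0.00353) were lower in UPF1 knockdown than in DHX34 knockdown. ATP5MC1 lost its call without UPF1 replicate 1 or UPF1 replicate 2, and ATP5MF without any library but DHX34 replicate 3. Of the 6 libraries, DHX34 replicate 3 moved the count between the knockdowns most. Without it 5 nuclear members were higher and 21 lower in UPF1 knockdown, against 10.7% of all genes higher and 10.5% lower.

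The isoforms of the members were tested on a table of all transcripts. Transcript fold changes and their p-values are on the count scale, relative to library size, while the levels shown beside them are TPM. Over all transcripts the log2 ratio of mean TPM lay above the count fold change by a median of 0.25 for UPF1 knockdown against SCR and 0.057 for UPF1 against DHX34 knockdown, so falls over SCR are smaller and rises larger in TPM. After UPF1 knockdown, 5 of 508 member transcripts rose and 54 fell, against 0.97% and 1.62% of all transcripts. The rises were thus near the share over all transcripts and the falls above it. Of the 5 that rose, 4 carry GENCODE's NMD biotype, the label for transcripts with a stop codon upstream of an exon junction. The share of this biotype among all transcripts that rose was not counted. The tested NMD-type transcripts of the members numbered 51 and had a median log2 fold change of 0.85, against 0.52 for all NMD-type transcripts. The members' 278 protein-coding transcripts had a median of -0.28, against -0.03.

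After DHX34 knockdown, none of 494 member transcripts was called by edgeR, where 0.0116% of all transcripts fell. At unadjusted p under 0.05, 9 were higher and 123 lower, and DESeq2 called 53 as falling and none as rising, against 2.57% of all transcripts falling. The median of the 47 NMD-type member transcripts was -0.24, against 0.01 for all NMD-type transcripts, and that of the protein-coding ones was -0.21, against 0.01. Between the knockdowns, 4 of 514 member transcripts were higher in UPF1 knockdown, against 0.732% of all, and none was lower, against 0.32%. The number higher was thus near the share over all transcripts. By unadjusted p under 0.05, 68 were higher and 42 lower, and DESeq2 called 36 and 15. All 4 of the called ones are of the NMD type.

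The ends of the open reading frames are shown for the 5 NMD-type transcripts that rose in either comparison, each above the most abundant protein-coding transcript of the same gene in the tables, because the place of the stop codon sets them apart. Each is the last 30 bases of the reading frame in GRCh38 (GENCODE 44) with the stop codon in capitals, and the coordinates are those of the stop codon.
UQCRH-205, plus strand, stop at chr1:46310232-46310234: aaaggcccgggagcggctagagctctgTGA
UQCRH-201, plus strand, stop at chr1:46316582-46316584: gcccacaaactctttaacaacttgaaaTAA
ATP5F1A-211, minus strand, stop at chr18:46095015-46095017: ttatttctcagtctacgccgcacttacTAG
ATP5F1A-201, minus strand, stop at chr18:46084282-46084284: acaaatttcttggctggatttgaagctTAA
NDUFB5-203, plus strand, stop at chr3:179616990-179616992: tctggtgaatgtattcattggtcaagcTGA
NDUFB5-201, plus strand, stop at chr3:179624038-179624040: cattctccgaaagcaactcctgacaatTAA
NDUFA5-204, minus strand, stop at chr7:123546788-123546790: cctatcataatgcaaattatcagtagtTAA
NDUFA5-202, minus strand, stop at chr7:123542119-123542121: cctgccgatcagtggaaatggccaataTAA
COX7A2-204, minus strand, stop at chr6:75241134-75241136: tttataggagatgttacttgtaattatTAG
COX7A2-202, minus strand, stop at chr6:75237930-75237932: gtggcttcatttcccaagaagcaggagTGA
The stop of the NMD-type transcript lies 82 bases before the last exon junction in UQCRH-205, 1476 in ATP5F1A-211, 159 in NDUFB5-203, 196 in NDUFA5-204 and 96 in COX7A2-204. In each protein-coding partner the stop lies in the last exon.

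UQCRH-205 (ENST00000496387) was the most abundant of the 5. It measured 41.8, 38 and 42.1 TPM in SCR, 39.4, 38.6 and 38.2 TPM in DHX34 knockdown and 119, 114 and 122 TPM in UPF1 knockdown. It rose by 1.29 ± 0.07 on the log2 scale over SCR (adjusted p = 0.000581) and by 1.56 ± 0.05 over DHX34 knockdown (adjusted p = 0.000139). The SCR and DHX34 libraries overlapped and the UPF1 libraries stood far above both. This transcript was chosen after its values were seen, since it is not among the 3 largest changes over SCR. Over the same libraries the main protein-coding transcript UQCRH-201 fell by 0.36 on the log2 count scale, and its log2 ratio of mean TPM was -0.11 (1885, 1828 and 1867 TPM in SCR and 1702, 1662 and 1798 TPM in UPF1 knockdown).

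ATP5F1A-211 (ENST00000590156), from the gene of the catalytic-head alpha subunit, measured 0.791, 0.836 and 0.551 TPM in SCR, 0.0791, 0.279 and 0.127 TPM in DHX34 knockdown and 3.87, 3.99 and 4.05 TPM in UPF1 knockdown (2.20 ± 0.19 over SCR, adjusted p = 0.00193). The DHX34 libraries were the lowest here, with no call. NDUFA5-204 (ENST00000466896) measured 2.22, 3.04 and 2.48 TPM in SCR, 1.85, 2.39 and 2.68 TPM in DHX34 knockdown and 10.5, 10.1 and 8.98 TPM in UPF1 knockdown (1.68 ± 0.18, adjusted p = 0.00347). NDUFB5-203 (ENST00000468210) measured 7.47, 5.51 and 6.77 TPM in SCR, 6.56, 6.62 and 5.61 TPM in DHX34 knockdown and 19.8, 18.2 and 21.2 TPM in UPF1 knockdown (1.33 ± 0.16, adjusted p = 0.00488). In both, UPF1 libraries alone stood apart.

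COX7A2-204 (ENST00000459637) measured 5.16, 6.23 and 3.55 TPM in SCR, 4.76, 3.44 and 4.68 TPM in DHX34 knockdown and 20.5, 17.1 and 20.4 TPM in UPF1 knockdown. It was called over DHX34 knockdown (2.14 ± 0.20, adjusted p = 0.00363) and not over SCR. The transcript calls over SCR were fragile: 0 to 30 were left when 1 library was dropped, with 30 without SCR replicate 2, 1 without UPF1 replicate 2 and none without any 1 of the other 4. Of the 4 calls between knockdowns, 1 or 2 were left.

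NMD-type status did not by itself fix the direction. UQCRB-203, of that type, fell after UPF1 knockdown from 140.4, 138 and 140.3 TPM in SCR to 123, 121 and 127 TPM (count scale -0.43, adjusted p = 0.00223, TPM ratio -0.17). NDUFA10-201, a protein-coding transcript, rose from 1.73, 1.67 and 1.49 TPM to 3.33, 3.53 and 3.31 TPM (count scale 0.80, adjusted p = 0.00326, TPM ratio 1.05). NDUFA7-201, also protein-coding, went the way of most called protein-coding member transcripts, of which 52 fell and 1 rose. It fell from 92.9, 95.8 and 98.5 TPM to 53.6, 54.9 and 59.7 TPM (count scale -1.02, adjusted p = 0.000769, TPM ratio -0.77). UQCRB-203, NDUFA10-201 and NDUFA7-201 were named after their values were seen.

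NMD-type transcripts made up 2.86, 2.86 and 2.78% of the nuclear members' TPM in SCR, 2.79, 2.68 and 2.89% in DHX34 knockdown and 3.54, 3.48 and 3.54% in UPF1 knockdown. UPF1 libraries were 0.685 percentage points above SCR (exact two-sided permutation p = 0.1), and DHX34 libraries differed from SCR by -0.047 points (exact permutation p = 0.7) and overlapped it. Over all transcripts the share was 2.23 to 2.38% in SCR and DHX34 knockdown and 3.06 to 3.10% in UPF1 knockdown. COX6C carried 41.3% of the members' NMD-type TPM in SCR, since 89.6 to 89.7% of its own TPM sits in such a transcript in every SCR library, and this did not rise (88.2 to 89.5% in UPF1 knockdown). Without COX6C the share was 1.64 to 1.71% in SCR, 1.58 to 1.71% in DHX34 knockdown and 2.34 to 2.41% in UPF1 knockdown.

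Of the 37 nuclear members with an NMD-type transcript, 20 had a higher NMD-type share in all 3 UPF1 libraries than in any SCR library, where 25.0% of 5623 genes did. After DHX34 knockdown 5 of the 37 did, where 6.19% of 5603 genes did. NDUFA7, an accessory subunit of complex I, had the share at 43.3 to 46.3% in SCR, 34.5 to 55.4% in DHX34 knockdown and 61.3 to 66.8% in UPF1 knockdown. COX4I1 went from 0.174 to 0.286% in SCR to 1.23 to 1.43% in UPF1 knockdown.

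**Figure D5:**
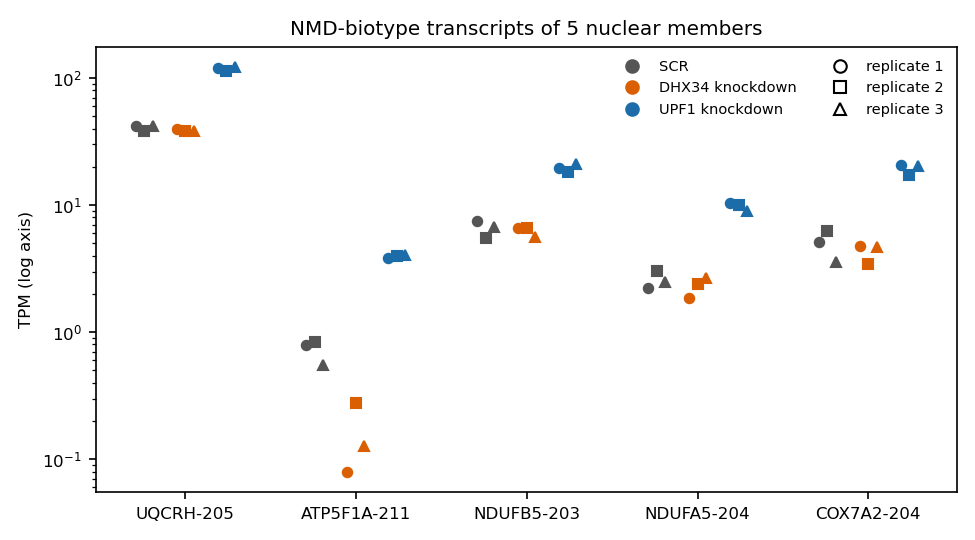
TPM of the 5 NMD-type member transcripts that rose, on a log axis, with 1 point per library coloured by group and shaped by replicate number. The 3 UPF1 knockdown libraries lie above all others for each transcript, for UQCRH-205 at 114 to 122 TPM against 38 to 42.1 TPM in SCR, and DHX34 libraries overlap SCR for all but ATP5F1A-211.

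Related mitochondrial genes were counted with the same fit, in which 4.86% of all genes fell and 5.54% rose after DHX34 knockdown and 12.9% fell and 12.4% rose after UPF1 knockdown. Of 54 assembly factors, 10 fell and none rose after DHX34 knockdown (median -0.17, with COX17, a copper chaperone for complex IV, at -0.38). After UPF1 knockdown 18 fell and 8 rose (median -0.08), with COX19, another protein of copper delivery, at 0.99 (adjusted p = 2.7e-07) and NDUFAF8 at -0.46. Of 78 mitochondrial ribosomal proteins, 16 fell and none rose after DHX34 knockdown (median -0.18, MRPL16 at -0.41), and 48 fell and 4 rose after UPF1 knockdown (median -0.20, MRPL41 at -0.52 and MRPL49 at 0.37).

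Of 20 genes that copy and transcribe mitochondrial DNA, 1 rose (POLG, 0.20) and 1 fell (SSBP1, the single-strand binding protein, -0.28) after DHX34 knockdown, near the 5.54% and 4.86% of all genes. After UPF1 knockdown 4 rose and 4 fell (RNASEH1 at 0.39 and SSBP1 at -0.36), where 12.4% and 12.9% of all genes did. Of 17 genes tested that process or degrade mitochondrial RNA, none was called after DHX34 knockdown (median -0.06), where 3 were higher and 6 lower at unadjusted p under 0.05 and DESeq2 called 3 as falling. After UPF1 knockdown 10 fell, against 12.9% of all genes, and none rose (median -0.17), led by REXO2, a mitochondrial oligoribonuclease, at -0.69 (adjusted p = 0.0031). Of 11 tested regulators of mitochondrial biogenesis, none was called by edgeR in any comparison. At unadjusted p under 0.05, 3 were higher and 3 lower after DHX34 knockdown and 2 were higher and 2 lower after UPF1 knockdown, and DESeq2 called 3 as rising after DHX34 knockdown and 1 as falling after UPF1 knockdown.

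Of 18 TCA cycle genes, 1 rose (IDH2, 0.48) and 1 fell (PDHA1, -0.19) after DHX34 knockdown, near the 5.54% and 4.86% of all genes. After UPF1 knockdown 8 fell and 1 rose (DLST, 0.41), where 12.9% and 12.4% of all genes did. Of 19 glycolysis genes, 2 fell and 1 rose (ENO2, 0.32) after DHX34 knockdown, and 12 fell after UPF1 knockdown (12.9% of all genes), with PGK1 at -0.34. In the list of 17 mitochondrial stress response genes, 6 fell after DHX34 knockdown (CHAC1 at -0.74), where 4.86% of all genes fell. After UPF1 knockdown 6 rose and 3 fell, where 12.4% and 12.9% of all genes did. ATF5, a transcription factor of that response, rose by 1.00 (adjusted p = 3.8e-09), and HSPE1, a matrix chaperonin, fell by 0.42 on the log2 scale (adjusted p = 5.4e-07). Between the knockdowns 10 of the 17 were higher in UPF1 knockdown, where 9.89% of all genes were, and none lower.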

How the data were processed

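Poly(A)-selected RNA of 9 K562 libraries (SCR, DHX34 and UPF1 siRNA, 3 each) was analysed. The authors quantified reads with salmon against Ensembl release 93 (GRCh38), and the deposited tables gave, per transcript, an expected count, TPM and an effective length. Their deposited differential expression and splicing results (4 tables of fold changes, p-values and inclusion changes) were not used.

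Of 203027 transcript identifiers, 97.9% were matched to GENCODE 44, which carried 98.1% of the expected counts. A gene whose transcripts went unmatched is understated. Expected counts and TPM were summed per gene, and counts were rounded. Members and related lists were chosen with earlier results of these data known.

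Each pair of groups was compared with edgeR 4.0.16 in R 4.3.3 (quasi-likelihood test, TMM factors, filterByExpr with a minimum count of 10, Benjamini-Hochberg over all genes or transcripts tested), and an adjusted p of at most 0.005 was called. CPM of single genes were normalised with TMM over the 9 libraries. Sums in CPM were scaled to the library total alone, without TMM factors. Errors of fold changes are standard errors from the fit. Sums were compared by exact permutation (scipy 1.17.1, two-sided). Overlapping genes, near-identical copies and read-through genes share reads that the counting may have split between them. Libraries of 73478797 to 103625443 expected counts made counting error small for most members. The standard errors and SDs reflect variation between libraries as well as counting, and cover no error shared by all libraries.

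Named were all mitochondrial members. For each comparison, the called nuclear members with the largest change were named (up to 5 per direction, groups not overlapping, mean level no lower than 5 TPM). Further names were the highest nuclear member per complex by TPM, isoform pairs, read-through genes, copies, the targeted genes, the 3 largest called transcripts per comparison whose mean was no lower than 1 TPM, and the extremes of each related list. Core complex I subunits and some further members were named to complete a complex, after their values were seen.

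Alternatives were DESeq2 1.42.0, RLE factors, no filter on low counts, a limit of 0.05, a replicate block, all 9 libraries in 1 fit, length-scaled TPM, removal of a length trend, limma 3.58.1 on log2(TPM + 0.5) or log2(TPM + 0.1), and each library left out. The scripts were tested on simulated data.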

Additional observations from a re-analysis of the deposited data

How the results depend on the processing

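The 29 nuclear members called after DHX34 knockdown depended on the settings. The count was 56 with DESeq2, 62 at an adjusted p of at most 0.05, 61 without the filter, 44 with all 9 libraries in 1 fit, 13 with the length trend removed, 14 with length-scaled TPM, 2 with limma on TPM at either pseudocount and 12 to 30 with a library left out. The 9 mitochondrial calls were 5 with the length trend removed, 4 with length-scaled TPM, 1 (pseudocount 0.1) and 0 (pseudocount 0.5) with limma, and 3 to 12 in leave-one-out fits. After UPF1 knockdown the 66 nuclear calls became 28 (pseudocount 0.1) and 27 (pseudocount 0.5) with limma. For member transcripts, DESeq2 called 53 after DHX34 knockdown, 156 after UPF1 knockdown and 51 between knockdowns, and the 0.05 limit gave 30, 140 and 36. Leave-one-out fits called 0 to 30 after UPF1 knockdown and 1 to 2 between knockdowns. Between knockdowns the 6 nuclear calls became 14 (DESeq2), 19 (0.05 limit), 2 (length-scaled TPM and limma), 16 (no filter) and 1 to 26 (leave-one-out), and the 0 mitochondrial calls became 2 without the filter and 0 to 4 with a library left out. Where no cause is named in a setting itself, the cause was not tested.

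With the replicate block, 17 nuclear members were called after DHX34 knockdown and 3 between knockdowns, and 0 transcripts after UPF1 knockdown or between knockdowns. The labels do not say whether libraries with the same number belong together. Deviations of such libraries from their group means correlated at -0.088 to 0.076, which shows no evident pairing but cannot exclude it.

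The sign turned for some small values. The mitochondrial sum of UPF1 against DHX34 knockdown (-0.02) was 0.009 in CPM without TMM factors. It was 0.016 without MT-ATP8 and MT-ND4L (an alternative chosen after seeing the data) and -0.108 to 0.106 with a library left out. The ratio to the nuclear sum (-0.004) was 0.016 from protein-coding transcripts, 0.037 in CPM and -0.1 to 0.143 with a library left out. The NMD-type share after DHX34 knockdown (-0.047 points) was -0.099 without DHX34 replicate 3 and 0.005 without DHX34 replicate 2. CYCS (0.065) and COX7A2L (0.174 and 0.175) turned positive after UPF1 knockdown with limma on TPM. There the median of all genes stood at 0.168 (pseudocount 0.5) and 0.213 (pseudocount 0.1).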
